A study of Mus musculus with 4 samples.

Results

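The TNF superfamily ligands and receptors followed here were 10 genes measured in liver and spleen of endotoxin-treated mice: the ligands Tnf, Lta, Ltb, Tnfsf10, Fasl and Tnfsf13b and the receptors Tnfrsf1a, Tnfrsf1b, Fas and Cd40. They were taken by gene symbol or by the current symbol of the probe's RefSeq accession, and all 10 were on the array, with 14 of its 41174 gene probes. They stood among 27670 genes in all. The rule itself uses names only, but the family was picked with earlier results of these data known.

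Male C57BL/6J mice, 7 weeks old, were fed purified diets for 4 weeks. The control diet held 0.03% nucleic acids, and the nucleoprotein diet held 0.5%, through a nucleoprotein product at 1.2%. All mice of both groups then received lipopolysaccharide (LPS), the bacterial cell wall component that triggers systemic inflammation, at 10 mg/kg, and were sampled for liver and spleen at 6 h. RNA was pooled within each diet and organ, from a number of mice that the labels do not state. Each organ was hybridised on 2 arrays with opposite dyes, array 1 with the nucleoprotein pool in Cy5 (red) and array 2 with it in Cy3 (green). The labels number the pooled samples 1 and 2 and do not say if both numbers stand for one pool or for separate pools. They were taken as one pool, the choice that claims least replication, so each diet and organ counted as 1 sample and no test was run. If the pools were separate, the SD of 2 arrays would also hold the spread between pools. No mice without LPS were analysed here, so the levels below are those of the injected state and do not measure induction by LPS.

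Ligands of the TNF superfamily are mostly membrane proteins that act as trimers, on the cell or after shedding, and each binds 1 or more receptors of the matching receptor family. Receptors with a cytoplasmic death domain, such as Tnfrsf1a and Fas, can start caspase-driven cell death, and those that recruit TRAF adaptors, such as Tnfrsf1b and Cd40, activate NF-kB. After LPS, macrophages are the best known source of TNF, while lymphotoxins come from lymphocytes and organise the lymphoid tissue of the spleen.

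Tnf, Lta and Ltb lie side by side on mouse chromosome 17, and because all 3 were brighter in spleen the 250 bases before their RefSeq starts are shown (GRCm38.p6). The starts of Tnf and Lta, both on the minus strand, are 3344 bases apart, and that of Ltb, on the plus strand, is 10844 bases from that of Lta. Capitals mark matches to the motifs searched on both strands: TATAAA, the AP-1 site TGANTCA, the core GAAANNGAAA of the interferon-stimulated response element, and the NF-kB consensus. The motifs did not overlap in these 3 windows.
Tnf, chr17:35202008-35202257, minus strand: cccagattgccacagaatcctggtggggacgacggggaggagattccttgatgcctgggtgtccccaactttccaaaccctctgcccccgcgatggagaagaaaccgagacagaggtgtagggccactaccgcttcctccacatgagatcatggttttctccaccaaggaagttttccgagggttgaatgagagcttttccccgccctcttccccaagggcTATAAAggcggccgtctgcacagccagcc
Lta, chr17:35205352-35205601, minus strand: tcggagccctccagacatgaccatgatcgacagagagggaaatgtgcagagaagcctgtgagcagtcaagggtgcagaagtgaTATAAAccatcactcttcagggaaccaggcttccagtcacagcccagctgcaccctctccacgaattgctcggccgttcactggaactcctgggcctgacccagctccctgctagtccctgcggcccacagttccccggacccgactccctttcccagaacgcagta
Ltb, chr17:35194257-35194506, plus strand: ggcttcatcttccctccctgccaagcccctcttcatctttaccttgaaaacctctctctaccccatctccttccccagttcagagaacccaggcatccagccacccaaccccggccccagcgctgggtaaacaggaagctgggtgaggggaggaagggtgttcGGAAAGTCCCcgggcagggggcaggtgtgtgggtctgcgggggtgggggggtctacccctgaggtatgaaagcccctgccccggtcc

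Tnf had TATAAA 24 to 29 bases before its start, and Lta had it 162 to 167 bases before. Ltb had an NF-kB consensus match on the opposite strand, 78 to 87 bases before its start. Among the 9 members with a listed promoter, 2 held TATAAA against 12.4% of all 32851 windows of that length, 2 the AP-1 site against 6.75% (Fas and Tnfsf13b), 2 the GAAANNGAAA core against 2.98% (Tnfsf13b and Tnfrsf1b) and 1 the NF-kB consensus against 3.90%. Members were counted by gene over any of their windows, and Tnfsf13b has several, while the percentages are per window, so the units differ. These are matches of letters and not measured binding.

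For 4 of the members 2 probes were present, and in 3 of these they gave different organ patterns. The first 30 of the 60 bases of each such probe are given because the reading of the gene depends on which was used, with the probe used for the gene (the brighter over the 4 arrays) first. Probe positions are on mm7, the build in the file headers, and whether a probe lies in coding sequence or in a UTR was not determined here.
Fasl, chr1:161743675-161743734, minus strand: agggtgggtctacttactacctcacagagg
Fasl other probe, chr1:161750452-161750511, minus strand: tggaatgggattaggaatgtatcagctctt
Tnfsf13b, chr8:10005713-10005772, plus strand: cgttgaatctgatccaaaccaggaaatata
Tnfsf13b other probe, chr8:10007535-10007594, plus strand: ttgcctgtgctggtattttgaggtgtttct
Tnfrsf1b, chr4:144626830-144626889, minus strand: gcaattgcactgtgtgctggacagaattcc
Tnfrsf1b other probe, aligned over chr4:144635392-144635965, minus strand: ctggtgaactgcttcatcctggtgcagagg

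Between 55.2% and 72.8% of the spots for genes stood well above background, depending on the channel, and no such spot was saturated (0 on each array). The organs carried their markers: all 10 hepatocyte genes of a fixed list were more than 2-fold brighter in liver in all 4 organ pairs, and all 7 measurable B cell genes in spleen. In the same pools all 12 pancreatic acinar genes were lower with nucleoprotein in liver (median log2 ratio -4.10) and in spleen (-1.11). Of these, 12 in liver and 11 in spleen were past 1.5-fold on both arrays. All 9 measurable hepatocyte genes were higher in the nucleoprotein spleen pool (median 1.31), 5 of them past 1.5-fold on both arrays. All arrays lay on 1 slide.

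The first comparison asked whether the nucleoprotein diet altered the family in LPS-injected mice. A gene was called where its log2 ratio of nucleoprotein over control passed 1.5-fold (0.58) in the same direction on both arrays, a rule of size and not a test. None of the 10 members was called in liver, where 0.329% of the 16405 measurable genes were (0.0122% higher and 0.317% lower with nucleoprotein), or in spleen, where 0.441% of 18149 were (0.215% higher and 0.226% lower). With this normalization none passed 1.5-fold in opposite directions on the 2 arrays either, as 0.451% of liver genes and 0.022% of spleen genes did. In the deposited log ratios of the scanner software Fasl did so in liver, and after median centring, which leaves the dependence of the dye ratio on intensity in place, 7 members did in each organ. Measurable meant well above background on both arrays in at least 1 diet, which held for 8 members in liver and all 10 in spleen. On a single liver array the log2 ratio reached 1.09 in the deposited log ratios (Fasl) and 2.18 with median centring (Tnfrsf1a). With the normalization used here, the largest ratio on any single array was a 1.19-fold difference in liver (Tnfsf10) and a 1.28-fold difference in spleen (Tnfsf13b). The mean ratios of the members ran from -0.19 to 0.12 in liver, with a median of -0.00, and from -0.21 to 0.11 in spleen, with a median of -0.01. Over all measurable genes the medians were 0.01 and -0.00, and the 2.5th and 97.5th percentiles were -0.21 and 0.20 in liver and -0.20 and 0.17 in spleen.

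**Figure D1:**
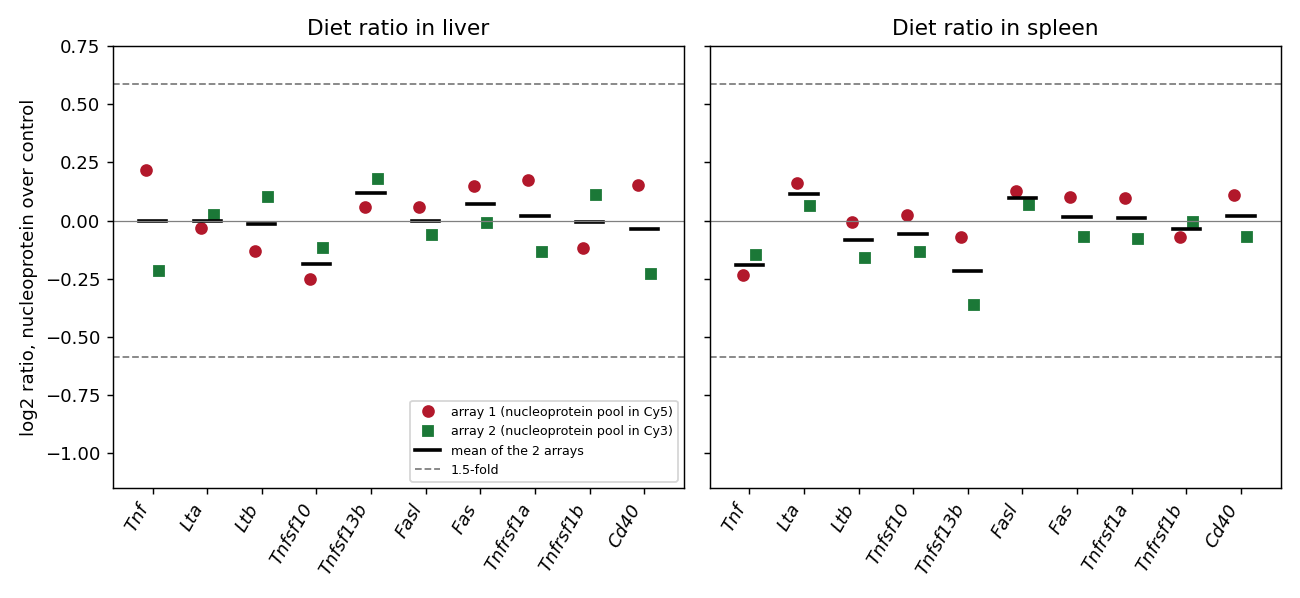
Log2 ratio of nucleoprotein over control for each of the 10 genes on both arrays of liver (left) and spleen (right), with circles for array 1, squares for array 2, a black bar for their mean and dashed lines at 1.5-fold. All points lie inside the dashed lines, and in liver 8 of the 10 genes have points on both sides of 0.

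Among the ligands, Tnf itself, the inflammatory cytokine that gives the family its name, had liver ratios of 0.22 on array 1 and -0.22 on array 2, a mean of -0.00 ± 0.30 (SD, 2 arrays). Its probe was printed 10 times on each array, and the 10 spots ran from 0.15 to 0.32 on array 1 and from -0.29 to -0.12 on array 2. After normalization the channel labelled with Cy5 was thus the brighter on both liver arrays, whichever diet it held, and the spots of the 2 arrays did not overlap. In spleen the ratios of Tnf were -0.23 and -0.15, a mean of -0.19 ± 0.06, or 0.876-fold. The spleen spots ran from -0.32 to -0.11 on array 1, and 9 unflagged spots from -0.30 to 0.05 on array 2. With the normalization used here, both spleen arrays placed Tnf lower in the nucleoprotein pool, inside the 1.5-fold bound. The mean stayed between -0.19 and -0.18 under every other normalization and background setting tried. After median centring, however, the arrays differed in sign, at 0.59 on array 1 and -0.95 on array 2, so the steady mean does not show that they agreed.

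Lta and Ltb encode the subunits of the lymphotoxins, Lta a secreted one that also binds the TNF receptors and Ltb the membrane anchor of the heterotrimer. Lta stood at -0.03 and 0.02 on the liver arrays and at 0.16 and 0.06 on the spleen arrays, a spleen mean of 0.11 ± 0.07. In liver it was well above background in 2 of the 4 channels only, both Cy5, and so was not measurable there for either diet. Ltb stood at -0.13 and 0.10 in liver and at -0.01 and -0.16 in spleen, where its mean was -0.08 ± 0.11. The spleen values of Lta lay above 0 and those of Ltb below it, and neither gene had a difference near the bound.

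Tnfsf10 encodes TRAIL and Fasl the Fas ligand, both inducers of apoptosis through death receptors. Tnfsf10 had the lowest mean of the members in liver, -0.25 and -0.12 on the 2 arrays, or -0.19 ± 0.09, and stood at 0.02 and -0.13 in spleen. The deposited log ratios of the scanner software gave -0.53 and -0.11 for Tnfsf10 in liver, a mean of -0.32, and median centring gave 0.73 and -0.82, a mean of -0.04. Fasl stood at 0.06 and -0.06 in liver, where, like Lta, it was well above background in 2 of 4 channels, both Cy5. The deposited log ratios of Fasl in liver were 1.09 and -0.67, past 1.5-fold in opposite directions, with a mean of 0.21. In spleen Fasl was at 0.13 and 0.07, a mean of 0.10 ± 0.04. The other Fasl probe gave -0.00 and 0.11 in liver and 0.15 and 0.02 in spleen.

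Tnfsf13b encodes BAFF, the survival factor of mature B cells. Its ratios were 0.06 and 0.18 in liver and -0.07 and -0.36 in spleen, so that both liver arrays lay above 0 and both spleen arrays below it, with means of 0.12 ± 0.09 and -0.21 ± 0.21. The control channel of liver array 1 was not well above background for this probe. With the deposited log ratios of the scanner software the liver values were 1.06 and 0.47, a mean of 0.76, not past the bound on both arrays. The mean was 0.54 with plain background subtraction, 0.23 with an offset of 10 intensity units in place of the 50 used here, and -0.03 with median centring. The other Tnfsf13b probe gave -0.02 and -0.07 in liver and -0.06 and -0.24 in spleen, so the liver direction was seen with 1 of the 2 probes.

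Among the receptors, Tnfrsf1a, the broadly expressed death domain receptor of TNF, stood at 0.17 and -0.13 in liver and at 0.10 and -0.08 in spleen. Tnfrsf1b, the TNF receptor found mainly on immune and endothelial cells, stood at -0.12 and 0.11 in liver and at -0.07 and -0.01 in spleen. Fas, the death receptor of hepatocytes and lymphocytes, stood at 0.15 and -0.01 in liver and at 0.10 and -0.07 in spleen. Cd40, the B cell and macrophage receptor for T cell help, stood at 0.15 and -0.23 in liver and at 0.11 and -0.07 in spleen. For Tnfrsf1a, Fas and Cd40 the Cy5 channel was the brighter on all 4 arrays after normalization. The mean diet ratio was smaller than the SD of the 2 arrays for all 4 receptors in both organs.

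The dye moved with the direction of many ratios. After the loess normalization used here, the Cy5 channel was the brighter on both arrays for 5 members in liver and 4 in spleen. The Cy3 channel was so for 3 and 0. These counts depend on the normalization: with median centring Ltb and Tnfrsf1b turned from Cy3 to Cy5 in liver, and Fasl from Cy5 to Cy3. With the loess normalization, 2 of the 8 members measurable in liver had the same sign on both arrays (Tnfsf10 and Tnfsf13b), against 34.1% of all measurable genes. In spleen 6 of the 10 had, against 40.3%. With median centring the same-sign members lost their shared sign in both organs. In spleen the Cy5 channel was then the brighter on both arrays for all 10. The 7 member probes printed 10 times had an SD between spots of one array of 0.03 to 0.13, with a median of 0.08. The dye component (Cy5 minus Cy3, the difference of the arrays divided by 2) reached 0.22 for Tnf and 0.19 for Cd40 in liver, where the same percentiles of all genes were -0.30 and 0.45. In spleen it reached 0.15 for Tnfsf13b.

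Marker lists of the cells that make or carry these proteins were read in the same pools. Of 7 measurable neutrophil genes, 7 had mean ratios above 0 in liver (median 0.22) and 7 in spleen (median 0.20), and none was called. Over all measurable genes 58.4% of mean ratios lay above 0 in liver and 49.8% in spleen. The neutrophil list's summed level ran from 14.24 to 14.56 in the control and from 14.53 to 14.71 in the nucleoprotein liver channels, and from 15.42 to 15.62 and from 15.71 to 15.76 in spleen. The diets overlapped in liver and did not in spleen. The T cell genes had 8 of 8 below 0 in spleen (median -0.12), with a summed level of 13.49 and 13.57 in the control and 13.47 and 13.36 in the nucleoprotein channels. The 6 measurable macrophage genes of spleen had a median of -0.07 and the 7 B cell genes one of -0.04. Their part in the values of Tnf, Tnfsf13b or Ltb was not tested.

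The second comparison set the levels of the 2 organs side by side. Levels are log2 intensities of single channels scaled between arrays, and each can be compared for 1 gene between samples but not between genes. Liver was set against spleen in the 4 pairs of the same diet, dye and array number, and a gene was called where it differed more than 2-fold the same way in all 4. Both diet pairs of an array number come from the same liver array and the same spleen array. The 4 pairs are thus not independent, and their SD can understate the spread. Among the 7 members well above background in all 8 channels, 3 were called, all higher in spleen (Ltb, Cd40 and Tnf), and 4 were not (Tnfsf10, Fas, Tnfrsf1a and Tnfrsf1b). Of the 13998 genes with such signal, 31.2% were called, 17.6% higher in spleen and 13.6% higher in liver. The median difference (liver minus spleen) was -0.20 over these members and -0.05 over those genes. The other 3 members, Lta, Fasl and Tnfsf13b, were called higher in spleen too, but they entered the comparison only through spleen, with 2, 2 and 3 of the 4 liver channels above background, so their calls carry no weight beside the background share. With them 6 of 10 were called, and of all 18121 genes entered in either way 29.9% were, 16.7% higher in spleen and 13.2% higher in liver. In these whole-organ pools, more cells of a type and more RNA per cell cannot be told apart.

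**Figure D2:**
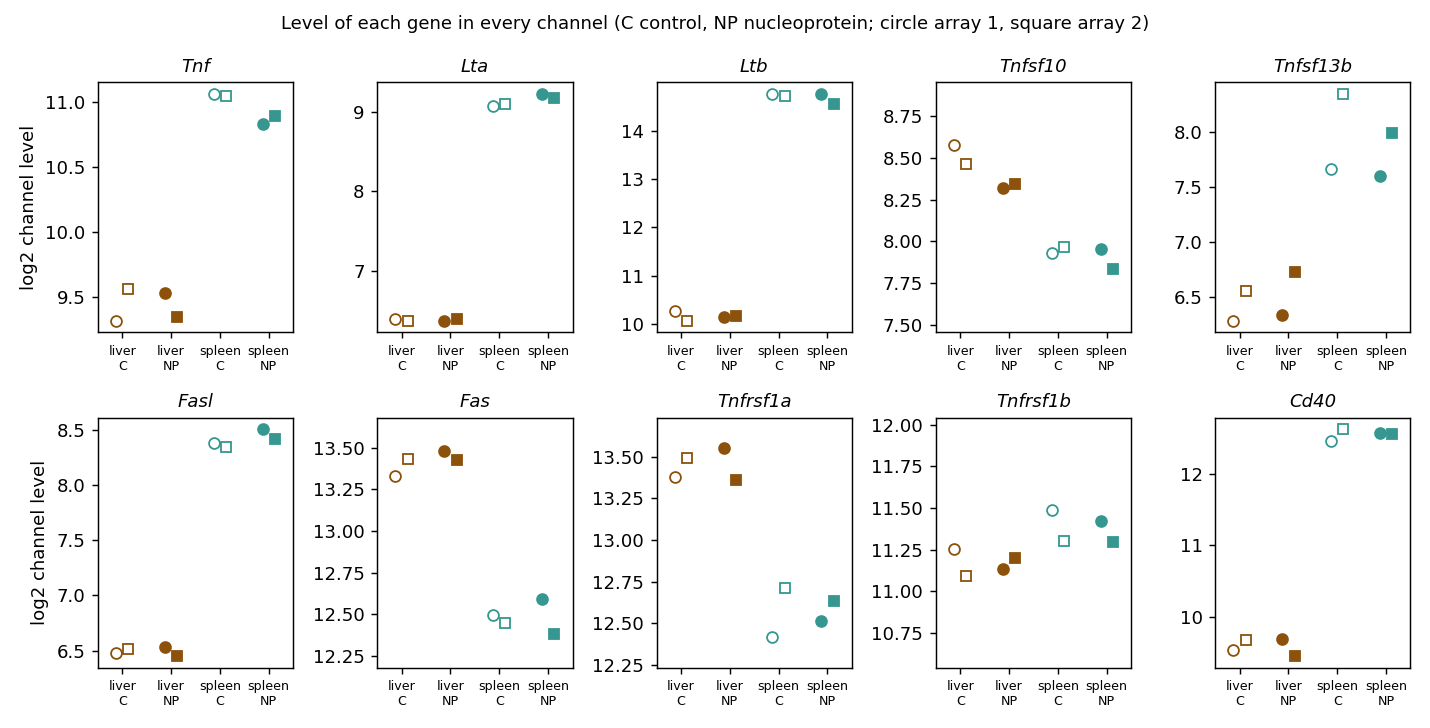
Log2 level of each gene in every channel, with liver in brown, spleen in teal, open symbols for the control (C) and filled ones for the nucleoprotein (NP) pool, circles for array 1 and squares for array 2. Axes differ between genes. Ltb, Cd40, Lta, Fasl, Tnf and Tnfsf13b are separated upwards in spleen, Tnfrsf1b only narrowly so, and Fas, Tnfrsf1a and Tnfsf10 in liver.

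Ltb had the widest gap of the 7 members above background throughout. Its levels were 10.26 and 10.06 in control liver and 10.14 and 10.16 in nucleoprotein liver, against 14.76 and 14.71 in control spleen and 14.76 and 14.55 in nucleoprotein spleen. It was 23.3-fold higher in spleen, with a difference of -4.54 ± 0.12 (SD, 4 pairs). The organs did not overlap, and the diets did within each organ. Lta stood at 6.40 and 6.37 in control and 6.37 and 6.39 in nucleoprotein liver, and at 9.07 and 9.11 in control and 9.23 and 9.17 in nucleoprotein spleen. This was a difference of -2.76 ± 0.08. As Lta was above background in 2 of 4 liver channels, that value is compressed, and scaling of the scanner software's processed signals to the 75th percentile gave -5.01.

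Tnf stood at 9.31 and 9.56 in control liver, 9.53 and 9.34 in nucleoprotein liver, 11.07 and 11.04 in control spleen and 10.83 and 10.89 in nucleoprotein spleen. It was 2.87-fold higher in spleen (-1.52 ± 0.18), and the difference was -1.62 between the control pools and -1.43 between the nucleoprotein pools. In spleen both nucleoprotein values of Tnf lay below both control values, and in liver they overlapped. The macrophage list, whose cells are a main source of TNF, was not uniform between the organs: 5 of its 8 genes were called higher in spleen and 2 in liver. These 2 were the Kupffer cell genes Clec4f, at least 46.9-fold higher, and Vsig4, at least 7.77-fold higher, both not well above background in any spleen channel and set against the lowest signal of detected probes there.

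Fasl stood between 6.45 and 6.54 in the 4 liver channels and between 8.34 and 8.50 in the 4 spleen channels, a difference of -1.92 ± 0.06. With 2 of 4 liver channels above background this value is compressed too, and it was -2.61 with an offset of 10 and -4.05 with the 75th percentile scaling. Its other probe did not show this: it stood at 0.27 ± 0.17, slightly brighter in liver, and with the mean of both probes (-0.82) Fasl was no longer called. Tnfsf13b stood at 6.28, 6.55, 6.34 and 6.73 in liver and at 7.67, 8.35, 7.60 and 7.99 in spleen (control arrays 1 and 2, then nucleoprotein), a difference of -1.43 ± 0.26. It was above background in 3 of 4 liver channels, and the 75th percentile scaling gave -2.92. The other Tnfsf13b probe stood at -0.05 ± 0.07, and the mean of both (-0.74) was not called. For both genes the probe was chosen by its mean over the organs, spleen included. In liver the other probe was the brighter for Fasl. For Tnfsf13b it was so in every liver channel but that of nucleoprotein on array 2 (6.51 against 6.73).

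Tnfsf10 was the ligand that was brighter in liver in all 4 pairs, at 8.58 and 8.46 in control and 8.32 and 8.35 in nucleoprotein liver and at 7.93 and 7.97 in control and 7.96 and 7.83 in nucleoprotein spleen. The difference was 0.50 ± 0.11, or 1.42-fold, and was not called. Its liver levels did not overlap between diets, the control being the higher by the 0.19 given above.

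**Figure D3:**
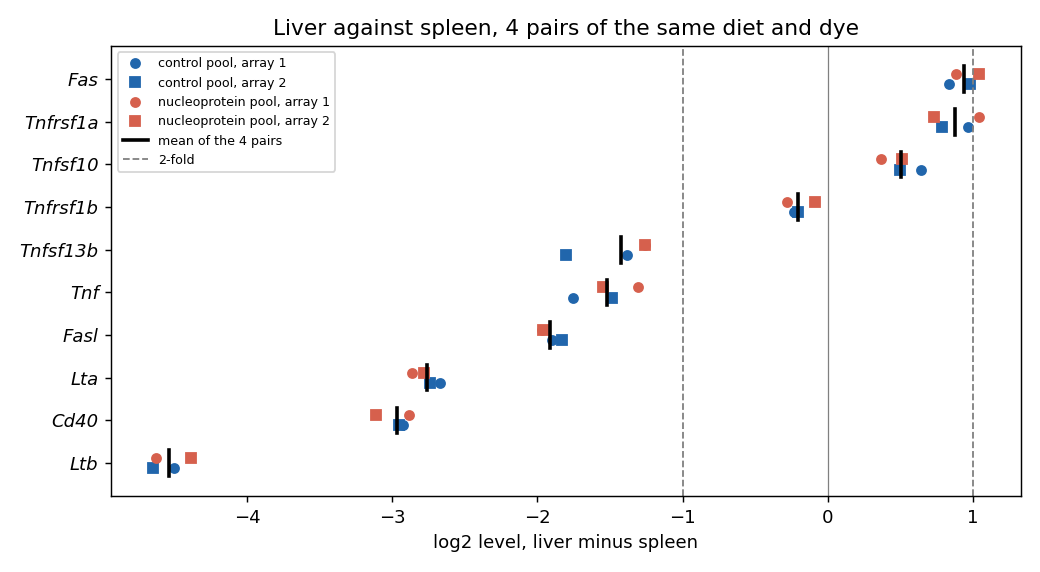
Liver minus spleen log2 level of each gene in the 4 pairs of the same diet and dye, with circles for array 1, squares for array 2, blue for control and red for nucleoprotein, a black bar for the mean and dashed lines at 2-fold. The genes run from Ltb at -4.54 to Fas at 0.94, and 6 lie wholly left of the lower line, of which Lta, Fasl and Tnfsf13b were dim in liver.

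The receptors divided. Cd40 stood at 9.53 and 9.67 in control and 9.68 and 9.44 in nucleoprotein liver, and between 12.46 and 12.62 in the 4 spleen channels, 7.83-fold higher in spleen (-2.97 ± 0.10). The B cell genes were likewise higher there, by a median of -4.40 over the 7 measurable, with Ms4a1 at -7.04. Their part in the Cd40 and Ltb values was not tested. Fas stood at 13.33 and 13.43 in control and 13.48 and 13.42 in nucleoprotein liver and between 12.38 and 12.59 in spleen, 1.91-fold higher in liver (0.94 ± 0.09). Its other probe gave 0.62 ± 0.07.

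Tnfrsf1a stood between 13.36 and 13.55 in liver and between 12.42 and 12.71 in spleen, 1.84-fold higher in liver (0.88 ± 0.15). Both Fas and Tnfrsf1a stayed short of the 2-fold bound in some pairs, while the 75th percentile scaling placed them at 1.69 and 1.62, past it in all 4. Tnfrsf1b differed least, at 11.26, 11.09, 11.14 and 11.20 in liver and 11.49, 11.30, 11.42 and 11.29 in spleen, a difference of -0.20 ± 0.08. Its sign was not stable, with 0.65 ± 0.17 from the other probe and 0.16 under the 75th percentile scaling. Among the 7 members above background throughout, the order of the mean difference from spleen to liver was Ltb, Cd40, Tnf, Tnfrsf1b, Tnfsf10, Tnfrsf1a and Fas. Of these neighbours, Tnfrsf1a and Fas overlapped in their 4 pairs. Lta, Fasl and Tnfsf13b have no settled place in it, since their differences grow with a smaller offset.

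The genes whose 8 channel levels, each centred on the gene's own mean, lay nearest to those of Tnf were sought among the 13998 genes well above background in all 8 channels. The nearest with official symbols were Gga2 at a Euclidean distance of 0.19 log2 units, Slamf7, a lymphocyte and myeloid surface receptor, at 0.22, and Adam15, a membrane metalloprotease, at 0.22. The other two of the 5 nearest carried only Ensembl transcript names.

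The rest of the pathway was followed through 79 further genes: 12 other ligands, 24 other receptors, 24 adaptors, kinases and caspases, 6 genes of TNF production and shedding, and 13 TNF target genes. None of the 65 measurable in liver and none of the 72 measurable in spleen was called for diet, with medians of 0.02 and -0.01. Map3k8, the kinase that drives TNF production downstream of Toll-like receptors, was past 1.5-fold on 1 liver array, at 0.70 and -0.39. By the fixed rule, the largest mean ratios with one sign on both liver arrays were those of the adaptor Traf4 at 0.25 ± 0.06, the TWEAK receptor Tnfrsf12a at 0.19 ± 0.10 and the inhibitor of apoptosis Birc3 at 0.16 ± 0.11. In spleen they were Ngfr, the nerve growth factor receptor, at -0.18 ± 0.09, Birc3 again at 0.18 ± 0.11 and Tnfrsf13b, a receptor of BAFF, at -0.17 ± 0.02. All of these lay inside the bound.

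Target genes of TNF lay on both sides of 0: in liver 6 of 13 had mean ratios above 0 (range -0.12 to 0.15) and in spleen 7 of 13 (range -0.07 to 0.10). Their liver medians were 0.08 on array 1 and -0.13 on array 2. Only 2 of the 13 in liver and 1 in spleen had one sign on both arrays. A shift of the group was not tested. The adaptors and kinases had 17 of 24 above 0 in liver, with medians of 0.23 on array 1 and -0.13 on array 2, and 10 of 23 in spleen. Of these 24, 3 had one sign on both liver arrays. Over all measurable genes 58.4% of mean ratios lay above 0 in liver and 49.8% in spleen.

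**Figure D4:**
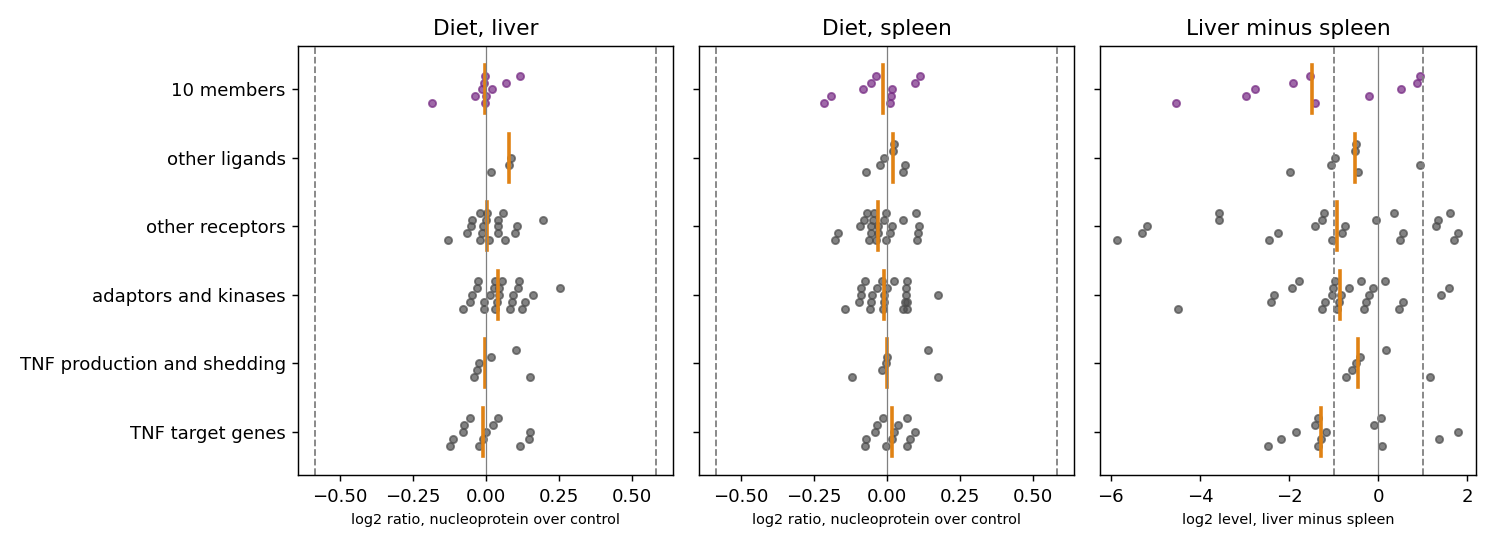
Mean log2 ratio of nucleoprotein over control in liver (left) and spleen (middle), and log2 level in liver minus spleen (right), for the 10 members (purple) and the measurable genes of the 5 pathway lists (grey), with an orange bar for each median and dashed lines at 1.5-fold and 2-fold. All diet means lie inside the bound. In the right panel 6 of 10 members and 24 of 72 listed genes were called higher in spleen, against 16.7% of all genes entered. Of the 6 members, Lta, Fasl and Tnfsf13b were dim in liver and entered only through spleen.

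Between organs 31 of 72 measurable pathway genes were called, 24 higher in spleen and 7 in liver, with a median of -0.78. Of all 18121 genes entered in the same way 29.9% were called, 16.7% higher in spleen and 13.2% higher in liver, with a median of -0.12. Some pathway genes entered only through spleen. With signal well above background in all 8 channels required, 28 were called, 21 higher in spleen and 7 in liver. Of all genes with such signal 31.2% were called, 17.6% higher in spleen and 13.6% higher in liver. The number of pathway genes that passed this filter is not given here, so the 28 cannot be read as a share. Higher in spleen were the ligand Tnfsf8 (-1.99 ± 0.07), the BAFF receptors Tnfrsf13c (-5.85 ± 0.05, 57.8-fold) and Tnfrsf13b (-5.29 ± 0.13), the adaptors Traf1 (-4.48 ± 0.03) and Traf5 (-2.40 ± 0.21), and the target genes Relb (-2.48 ± 0.12), an NF-kB subunit, and Tnfaip2 (-2.18 ± 0.18). In liver, Tnfsf8 was well above background in 1 of 4 channels and Tnfrsf13c in 3. Higher in liver were the decoy receptor Tnfrsf22 (1.80 ± 0.11), the ectodysplasin receptor Eda2r (1.70 ± 0.13), the NF-kB kinase subunit Ikbkg (1.58 ± 0.11), the chemokine Cxcl1 (1.79 ± 0.12) and the endothelial adhesion gene Sele (1.36 ± 0.26).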

How the data were processed

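Scanner output came from Agilent's Feature Extraction, which the submitters' processing notes give as version 9.5.3.1. Each deposited file lists, spot by spot and per the file headers, the mean intensity and the local background of either channel, a processed intensity, and the red over green ratio as log10. The deposited p-value of that ratio was not used. The authors' deposited series table holds a signed score whose size was the linear red over green ratio of the same spots. Every value of the arrays numbered 1 carried a minus sign in it, of unstated purpose, so only its size was used. Its column medians were -0.92, 0.92, -0.96 and 0.96, and 75.1% to 83.3% of sizes lay within 0.01 log2 of the scanner ratio.

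From the mean intensities, background was corrected by normexp with an offset of 50 (limma 3.58.1, R 4.3.3), log2 ratios were normalized by loess within each array with control spots at weight 0, outlier spots were dropped (189 to 354 of 43379 gene spots per array) and spots of a probe averaged. Levels were Aquantile scaled between arrays. Ratios were turned to nucleoprotein over control. The offset shrinks ratios of dim probes. The steps for the ratios were tested on simulated data, with changes given only to probes well above background in every channel. Recovery of calls was required of the brighter probes only. Dim signals, such as those of Lta, Fasl and Tnfsf13b in liver, were not covered.

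Of the probes, 22951 were named through RefSeq accession and 9768 through symbol or synonym (GRCm38.p6 table, names only), and 8455 kept the file's name. The brightest probe stood for a gene. A gene was measurable for diet when well above background on both arrays in at least 1 diet, and between organs when so in all 4 channels of 1 organ. The precision was limited by the number of arrays. The members and lists were chosen with earlier results of these data known. Named pathway genes were those called by diet, else the 3 largest same-sign ratios per organ among genes well above background in every channel, and the 2 largest called organ differences each way per list, and all 10 members were named. Clec4f, Vsig4, Ms4a1 and Map3k8 were chosen after their values were seen.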

Additional observations from a re-analysis of the deposited data

Results flagged for a closer look

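Tnfsf13b, the gene of the B cell survival factor BAFF, was singled out because its diet ratio lay above 0 on both liver arrays and below 0 on both spleen arrays, with means of 0.12 in liver and -0.21 in spleen. With median centring the probe used for Tnfsf13b had opposite signs on the arrays of each organ. Its other probe lay below 0 on all 4 arrays with the normalization used here. The difference between the organs was not tested, as the arrays of an organ were counted as 1 sample per diet.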

How the results depend on the processing

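No member was called for diet in either organ under any alternative run: a normexp offset of 10, plain background subtraction, median centring, the scanner software's deposited log ratios, the series table, the mean of all probes, each array alone, stricter or no filters, and bounds of 1.3-fold and 2-fold. For the pathway genes in liver the count was 0 to 1 with each array left out, the 1 being Map3k8 without replicate 2, and 0 otherwise. Median centring moved the median of all liver genes from 0.01 to 0.17 and that of the members to 0.20. Between organs 4 to 8 members were called, 4 with the mean of all probes and 8 with 75th percentile scaling (6 higher in spleen, 2 in liver), and 25 to 40 pathway genes. With genes above background in all 8 channels, a filter added after seeing the data, 3 members were called. The sign of the mean was kept over the other settings by 3 of the 10 members for diet in liver, 8 in spleen and 9 between organs (not Tnfrsf1b), and by 1 (Tnfsf10), 5 and 9 when each array alone is counted too. No paired analysis was possible because no result came from a test, as the arrays of an organ were counted as 1 sample per diet. Dim signals of Lta, Fasl and Tnfsf13b in liver limit their ratios there.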
